A study of Homo sapiens with 6 samples.

Results

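The collagen chains and the enzymes that hydroxylate and cross-link them were followed in OVCAR3, an established human ovarian cancer cell line, after knockdown of NUF2, a subunit of the Ndc80 complex at the kinetochore. Members were taken by gene symbol alone: every collagen chain gene of the form COL, number, A, number, the lysyl oxidase family (LOX and LOXL1 to LOXL4), the lysyl hydroxylases PLOD1 to PLOD3, and the prolyl 4-hydroxylase alpha subunits P4HA1 to P4HA3. This gave 55 of the 19973 genes listed, namely 44 collagen chains and 11 enzymes. RNA was sequenced from 3 libraries of cells transfected with a control hairpin (shNC) and 3 libraries of cells transfected with a hairpin against NUF2 (shNUF2). The genotype is labelled WT in the shNC libraries and NUF2 knockdown in the shNUF2 libraries. By the submitters' design text, puromycin was used on cells of both groups to obtain stable lines, so transfection and selection were shared. The comparison rests on 1 cell line and 1 hairpin per group. The labels do not say whether the libraries of a group came from separate cultures, so p-values measure the spread between these libraries, which may be technical.

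A collagen molecule is a triple helix of 3 chains, which may be copies of 1 gene product or products of several genes. In the endoplasmic reticulum, prolyl 4-hydroxylases modify prolines, which stabilizes the helix at body temperature, and lysyl hydroxylases modify lysines that later carry sugars or cross-links. After secretion, lysyl oxidases oxidize lysines and hydroxylysines, and the products form covalent cross-links between neighbouring molecules. Fibrillar collagens build the fibres of the stroma, type IV collagens the network of basement membranes, and smaller classes decorate fibrils, anchor basement membranes or span the cell membrane. In ovarian tumours much of the collagen is laid down by stromal fibroblasts, and carcinoma cells in culture also transcribe collagen genes.

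Total counts ran from 13057534 to 16995452 per library. NUF2 itself had 903, 1096 and 1092 reads in the shNC libraries against 281, 290 and 384 in the shNUF2 libraries, so the groups did not overlap, and its log2 fold change was −1.51 (SE 0.08, Benjamini-Hochberg adjusted p = 2.17e-15, edgeR's quasi-likelihood test). The epithelial genes KRT7, KRT8, KRT18 and PAX8 were present in all 6 libraries. Of the other markers of this carcinoma, MUC16 had 371 to 873 reads per library and EPCAM 44 to 91, while CDH1 had 9 to 33 and WT1 at most 7. In a bulk sample, fewer cells of a type and less RNA per cell cannot be told apart.

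Most of the measured collagen genes and enzymes differed between the groups, and more were higher than lower with shNUF2. Of the 55 genes, 38 had enough reads to be tested, among them all 11 enzymes and 27 chains. A call required a log2 fold change larger than 1 in either direction together with an unadjusted p under 0.05. By this rule 13 of the 38 were called higher (34.2%, against 9.41% of all 12874 genes tested) and 2 were called lower (5.26%, against 4.16%). At a Benjamini-Hochberg adjusted p under 0.05, whatever the size of the change, 24 rose (63.2%, against 33.9% of all genes) and 8 fell (21.1%, against 33.8%), while 6 did not pass. The median log2 fold change was 0.44 for the 38 and −0.01 for all genes tested. Libraries of the groups did not overlap in 34 of the 38 (89.5%), against 70.6% of all genes, and the 4 that overlapped were LOXL1, LOXL3, P4HA3 and COL15A1.

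Part of the excess of higher calls belongs to genes with few reads. COL13A1, COL5A2, COL9A2, COL20A1 and COL28A1 reached the count cutoff in the shNUF2 libraries only, so they could enter the test only by being higher there. Among the 33 members past the cutoff in both groups, 8 were called higher and 2 lower (24.2% and 6.06%), against 6.66% and 3.9% of the 12001 genes past it in both groups. At an adjusted p under 0.05, 19 of the 33 rose and 8 fell (57.6% and 24.2%), against 32.9% and 35.6% of those genes. Their median log2 fold change was 0.24. The other 17 chains were not tested. COL6A5, COL19A1 and COL23A1 had no read in any library, and the remaining untested chains had at most 15 reads in any library.

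**Figure D1:**
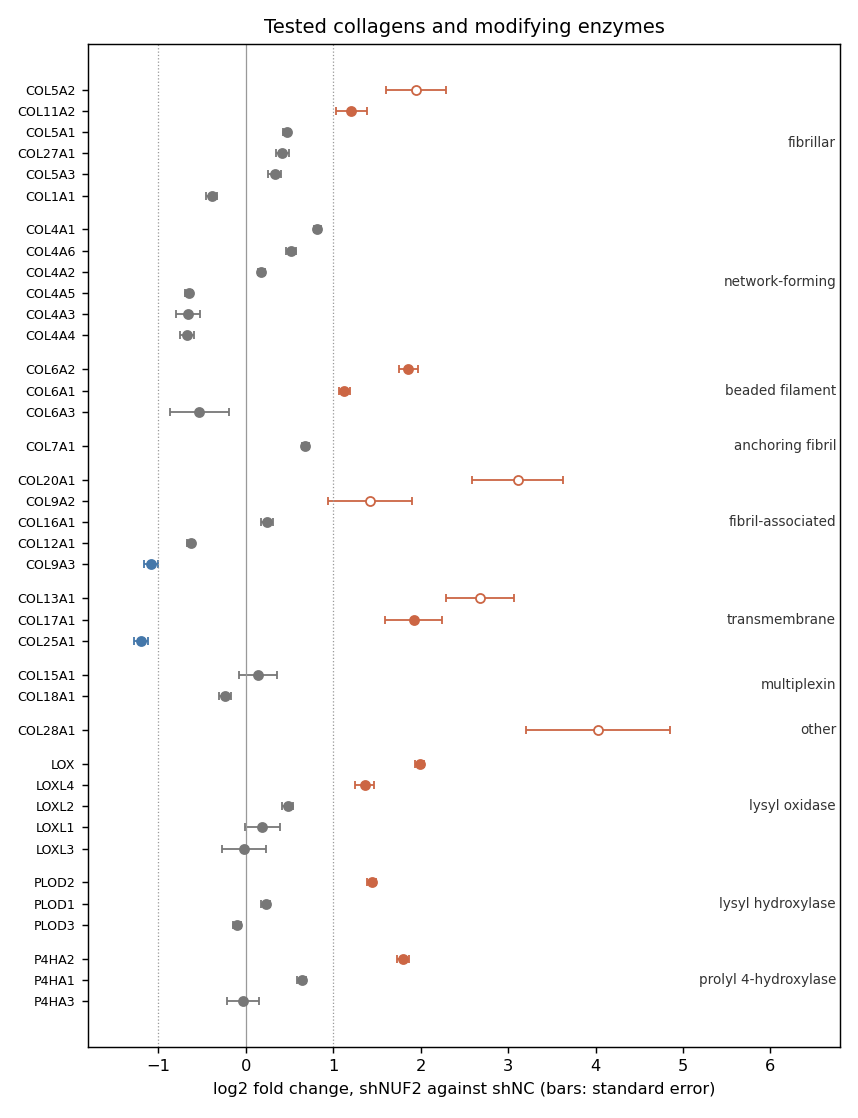
Log2 fold change of the 38 tested members, shNUF2 against shNC, by class, with standard errors from edgeR; dotted lines mark 1 and −1, orange is called higher, blue called lower, grey not called, and open circles are members past the count cutoff in the shNUF2 libraries only. The values run from −1.20 for COL25A1 to 4.03 for COL28A1, and 4 enzymes lie above 1 while the lowest enzyme, PLOD3, lies at −0.10.

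Of the 11 enzymes, 4 were called higher (36.4%, against 9.41% of all genes) and 0 lower (against 4.16%, a share near the background for 11 genes). No enzyme had a lower level at an unadjusted p under 0.05 either (0 of 11), and DESeq2's Wald test also called 0 lower. Each enzyme family held at least 1 member that rose past the threshold beside members that moved little.

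LOX, the founding lysyl oxidase, showed the largest difference among the enzymes. It had 4548, 4454 and 4907 reads with shNC, compared with 16646, 14358 and 17528 with shNUF2. The lowest shNUF2 library lay far above the highest shNC library. Its normalized count was 295 ± 22.1 CPM with shNC and 1168 ± 65.2 CPM with shNUF2 (mean ± SD, n = 3), a ratio of 3.97. CPM are read counts per library size after TMM scaling. The log2 fold change was 1.99 (SE 0.05, adjusted p = 9.90e-22, edgeR with Benjamini-Hochberg adjustment). LOX (ENSG00000113083) lies on the minus strand of chromosome 5 at 122063195 to 122078413 of GRCh38. Exons of SRFBP1 on the opposite strand cover 2.49% of its exon bases, and the strand setting of the counting is not given in the sources used here.

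LOXL2, a lysyl oxidase that acts on type IV collagen, rose by less. Its reads were 8252, 7436 and 8407 with shNC and 9801, 8856 and 10876 with shNUF2, and its log2 fold change was 0.48 (SE 0.06, adjusted p = 3.05e-08, edgeR with Benjamini-Hochberg adjustment). Per length, in the deposited FPKM (fragments per kilobase of gene length, scaled to the library's total), LOXL2 was above LOX with shNC (86.5 ± 9.86 and 53.3 ± 3.75 FPKM) and below it with shNUF2 (117 ± 3.3 and 206 ± 9.55 FPKM). The order of the leading lysyl oxidases thus turned round in all 3 libraries of each group. LOXL4, a further family member, was called higher as well. It went from 169, 136 and 185 reads to 360, 358 and 386, a log2 fold change of 1.36 (SE 0.11, adjusted p = 5.57e-11, edgeR with Benjamini-Hochberg adjustment), although at 2.92 ± 0.469 and 7.31 ± 0.291 FPKM it stayed a small part of the family.

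LOXL1, which is known for its part in elastic fibre formation, had 70, 58 and 93 reads against 69, 69 and 82, and LOXL3 had 38, 45 and 47 against 42, 32 and 38. Neither passed the test (log2 fold changes 0.19 and −0.02, adjusted p = 0.415 and 0.943, edgeR with Benjamini-Hochberg adjustment). Exons of HTRA2 on the opposite strand cover 14.3% of those of LOXL3. The family's summed level went from 145 ± 14.1 to 332 ± 12.2 FPKM. LOX made up 36.9 ± 1% of that sum with shNC and 61.9 ± 0.699% with shNUF2, and LOXL2 59.7 ± 0.953% and 35.2 ± 0.619% (mean ± SD, n = 3). For both shares the exact two-sided permutation test gave p = 0.10, the smallest it can give for 3 libraries against 3.

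Among the lysyl hydroxylases, PLOD2 moved most. PLOD2 hydroxylates the lysines in the telopeptides, the short ends outside the helix where cross-links form. Reads were 2239, 2361 and 2698 with shNC and 6096, 5273 and 5899 with shNUF2. All shNUF2 libraries were high and none came near the shNC range. The normalized count went from 154 ± 5.45 to 417 ± 31.5 CPM (mean ± SD, n = 3), a log2 fold change of 1.44 (SE 0.05, adjusted p = 7.33e-19, edgeR with Benjamini-Hochberg adjustment). PLOD2 (ENSG00000152952) lies on the minus strand of chromosome 3 at 146069440 to 146163653.

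PLOD1 and PLOD3, which act on lysines within the helix, moved much less. PLOD1 had 3323, 3293 and 3466 reads in shNC cells and 3290, 3376 and 3703 in shNUF2 cells, and rose by a log2 fold change of 0.23 (SE 0.05, adjusted p = 0.000292, edgeR with Benjamini-Hochberg adjustment). PLOD3 had 1260, 1413 and 1448 against 1106, 1043 and 1218 reads, with a log2 fold change of −0.10 (SE 0.05) and an adjusted p of 0.0826. PLOD3 passed the adjusted threshold with library totals alone as the scaling (−0.14, adjusted p = 0.0202, edgeR) and without a filter on low counts (−0.13, adjusted p = 0.0441, edgeR). Per length, PLOD1 was the leading lysyl hydroxylase with shNC (40.7 ± 3.15 FPKM, against 20.3 ± 0.628 for PLOD2). With shNUF2 the leading one was PLOD2 (53.6 ± 3.64 FPKM, against 46.4 ± 1.98 for PLOD1). The ratio of PLOD2 to PLOD1 in FPKM was 0.468, 0.498 and 0.54 in the shNC libraries and 1.29, 1.08 and 1.11 in the shNUF2 libraries.

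The prolyl 4-hydroxylase alpha subunits carry the active site of the enzyme that stabilizes the triple helix. P4HA2 had 1260, 1130 and 1218 reads across the shNC libraries, compared with 3896, 3351 and 3830 across those of shNUF2. The groups were far apart, and the 3 libraries within each group were close together. Its normalized count went from 76.7 ± 10.3 to 267 ± 19 CPM (mean ± SD, n = 3), a log2 fold change of 1.80 (SE 0.07, adjusted p = 1.62e-18, edgeR with Benjamini-Hochberg adjustment). P4HA2 (ENSG00000072682) lies on the minus strand of chromosome 5 at 132190147 to 132295315, and exons of P4HA2-AS1 on the opposite strand cover 6.45% of its exon bases.

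P4HA1, the subunit with the highest level in both groups, had 2857, 2832 and 2934 reads with shNC, compared with 3959, 3707 and 4121 with shNUF2, and rose by 0.64 on the log2 scale (SE 0.05, adjusted p = 2.64e-11, edgeR with Benjamini-Hochberg adjustment). P4HA3 had 104, 105 and 101 reads against 73, 83 and 112 and did not pass the test (log2 fold change −0.03, adjusted p = 0.892, edgeR). P4HA2 made up 11.2 ± 0.505% of the summed FPKM of the 3 subunits with shNC and 22.3 ± 0.79% with shNUF2 (exact two-sided permutation p = 0.10, the smallest possible). P4HB, the beta subunit that all 3 alpha subunits need, rose by 0.77 (SE 0.04, adjusted p = 1.59e-14, edgeR with Benjamini-Hochberg adjustment), with 6405, 6544 and 7387 reads against 10210, 9233 and 11037.

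**Figure D2:**
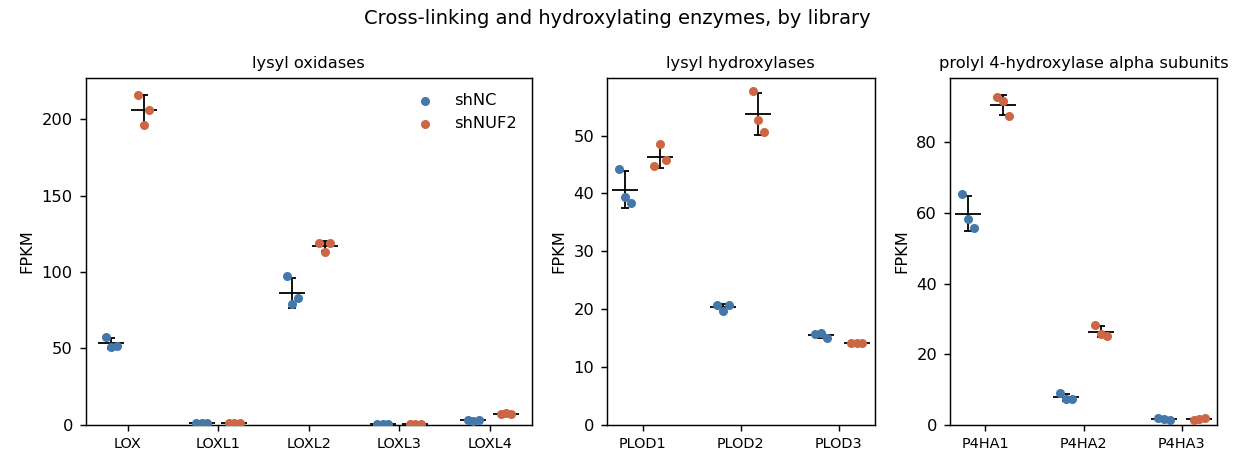
FPKM of each lysyl oxidase, lysyl hydroxylase and prolyl 4-hydroxylase alpha subunit in the 3 shNC (blue) and 3 shNUF2 (orange) libraries, with the mean and SD as black lines. LOX goes from a mean of 53.3 to 206, PLOD2 from 20.3 to 53.6 and P4HA2 from 7.79 to 26.4, and LOX and PLOD2 pass LOXL2 and PLOD1, which lead their families with shNC.

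The promoters of LOX and PLOD2 are shown because these enzymes took over the leading place in their families. Each line gives the strand of the gene from RefSeq on GRCh38.p14, before the RefSeq start and outside the exons of GENCODE 29, with ACGTG on either strand (CACGT where it lies on the other one) in capitals. ACGTG is the core of the hypoxia response element, to which hypoxia-inducible factors bind. The LOX stretch is chr5:122078414-122078509 on the minus strand (96 bases, GC content 56.2%), 155 to 250 bases before the RefSeq start and wholly before the 5′ end of the gene as deposited. The PLOD2 stretch is chr3:146161185-146161434 on the minus strand (250 bases, 72.4%), which directly precedes the RefSeq start but lies inside the deposited span of the gene, since that span begins further upstream.
LOX: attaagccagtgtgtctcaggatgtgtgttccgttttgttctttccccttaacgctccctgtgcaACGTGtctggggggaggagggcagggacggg
PLOD2: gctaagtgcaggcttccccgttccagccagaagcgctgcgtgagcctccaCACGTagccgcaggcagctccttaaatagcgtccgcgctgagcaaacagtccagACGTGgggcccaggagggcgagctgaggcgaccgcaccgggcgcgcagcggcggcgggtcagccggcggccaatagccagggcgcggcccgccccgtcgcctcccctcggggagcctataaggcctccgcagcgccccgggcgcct
The LOX stretch held 1 match and the PLOD2 stretch 2. The full window of 300 bases at the same LOX start held 4, and the windows at 2 further LOX starts held 1 each. The rest of these windows is not shown. The windows of P4HA2 and LOXL4, the other enzymes called higher, held 0 matches of ACGTG. Over all members with an entry (41 genes, 56 promoter windows of 300 bases), ACGTG was found in 12 windows, or 21.4%, which is the same share as among all 35116 windows (21.4%). The AP-1 motif TGANTCA was in 1.79% of the members' windows against 7.71% of all, and the SP1 motif GGGCGG in 53.6% against 45%. Both strands were searched for each motif, and a match of one motif can share bases with a match of another. A match is a description of the letters and shows no binding.

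The collagen chains moved in both directions. Of the 27 tested, 9 were called higher and 2 lower (33.3% and 7.41%, against 9.41% and 4.16% of all genes), and 5 of the 9 were the chains past the count cutoff with shNUF2 only. At an adjusted p under 0.05, 17 rose and 8 fell (63% and 29.6%, against 33.9% and 33.8% of all genes), and 2 did not pass. Among the 22 chains past the cutoff in both groups, 4 were called higher and 2 lower (18.2% and 9.09%, against 6.66% and 3.9% of all such genes), and 12 rose and 8 fell (54.5% and 36.4%, against 32.9% and 35.6% of all such genes). Per length, transcripts of COL7A1 and COL5A1 dominated in both groups. The collagen chains summed to 514 ± 20.5 FPKM with shNC and 689 ± 20.1 FPKM with shNUF2, of which these chains together made up 66.4% and 73%.

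COL7A1 encodes the only chain of type VII collagen, which forms the anchoring fibrils under epithelial basement membranes. It had 33943, 34183 and 37801 reads in shNC cells and 50640, 44539 and 53524 in shNUF2 cells, with no overlap. Its level was 205 ± 10.9 FPKM and 319 ± 11.8 FPKM (mean ± SD, n = 3), the highest of all members in both groups. The log2 fold change was 0.68 (SE 0.04, adjusted p = 2.86e-13, edgeR with Benjamini-Hochberg adjustment), which is below the fold threshold. COL7A1 lies on chromosome 3 at 48564073 to 48595267.

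Type V collagen limits the diameter of type I fibrils, and its usual molecule holds COL5A1 and COL5A2 chains. COL5A1 had 22811, 22720 and 25601 reads across the shNC libraries, compared with 29285, 26312 and 30745 across those of shNUF2, and rose by 0.47 (SE 0.04, adjusted p = 5.08e-10, edgeR with Benjamini-Hochberg adjustment). COL5A2 had only 8, 14 and 12 reads against 30, 38 and 48, and was called higher (log2 fold change 1.95, SE 0.34, adjusted p = 1.67e-05, edgeR). It was tested through the shNUF2 libraries only. In FPKM the COL5A1 transcript exceeded that of COL5A2 by 1870, 1064 and 1399 times in the shNC libraries and by 640, 454 and 420 times in the shNUF2 libraries. COL5A3, a further chain of the type, had 1015, 984 and 1047 reads against 1146, 967 and 1267 and rose by 0.33 (SE 0.07, adjusted p = 6.58e-05, edgeR with Benjamini-Hochberg adjustment).

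The other fibrillar chains were far lower or moved less. COL1A1, the main chain of type I collagen, had 1123, 1292 and 1468 reads with shNC, compared with 865, 835 and 886 with shNUF2, and fell by 0.39 on the log2 scale (SE 0.06, adjusted p = 1.23e-06, edgeR with Benjamini-Hochberg adjustment). COL1A2, its partner in the usual type I molecule, had 0 to 2 reads in every library and was not tested. COL11A2, a chain of the cartilage collagen type XI, had 51, 60 and 67 reads against 129, 114 and 116 and was called higher, with a log2 fold change of 1.21 (SE 0.18, adjusted p = 1.27e-06, edgeR). COL27A1 rose by 0.42 (SE 0.07, adjusted p = 6.30e-06, edgeR). Of the 6 fibrillar chains tested, 5 rose and 1 fell (83.3% and 16.7%, against 33.9% and 33.8% of all genes). Of the 5, COL11A2 and COL5A2 were called, the latter tested through the shNUF2 libraries only. Thus 33.3% of the 6 were called higher and 0% lower, against 9.41% and 4.16% of all genes.

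**Figure D3:**
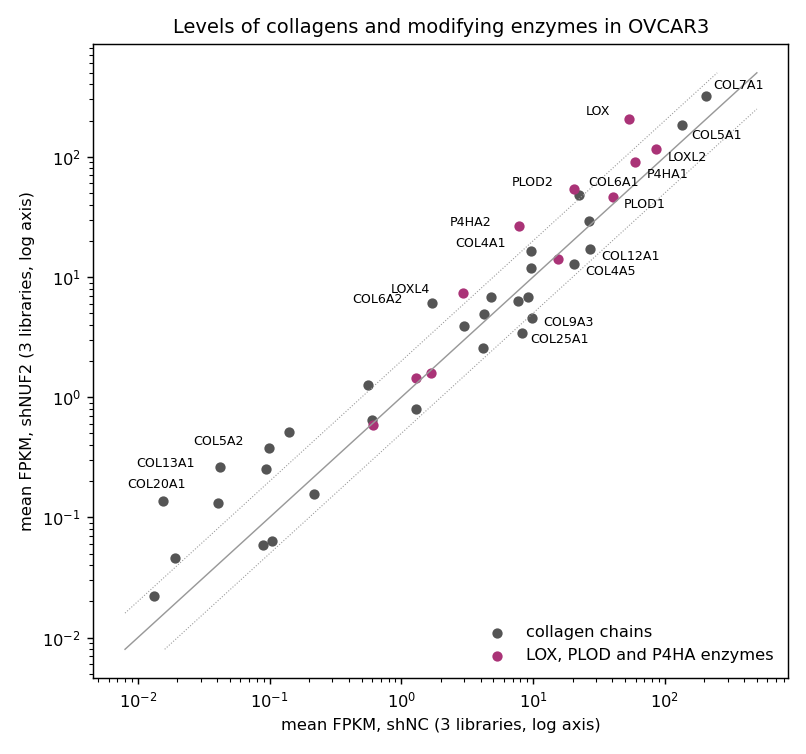
Mean FPKM of 42 members with shNC (horizontal, log axis) and shNUF2 (vertical, log axis), with enzymes in purple and chains in grey; the solid line marks equal levels, dotted lines a 2-fold difference, and 13 members with a mean of 0.01 FPKM or less in a group are not drawn. COL7A1 and COL5A1 stand at the top near the line, LOX, PLOD2, P4HA2 and COL6A2 lie above the upper dotted line, and COL9A3 and COL25A1 lie below the lower one.

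Type VI collagen forms beaded filaments from COL6A1, COL6A2 and another chain, most often COL6A3. COL6A1 had 1821, 1717 and 2045 reads in shNC cells and 3728, 3131 and 3864 in shNUF2 cells. COL6A2 had 129, 155 and 141 reads against 474, 423 and 457. Both chains were high in every shNUF2 library, with no overlap between groups. The log2 fold changes were 1.13 for COL6A1 (SE 0.06, adjusted p = 1.42e-15) and 1.86 for COL6A2 (SE 0.11, adjusted p = 2.19e-14, edgeR with Benjamini-Hochberg adjustment). Their genes lie close together on chromosome 21, at 45981769 to 46005050 and 46098112 to 46132848. Per length, COL6A1 exceeded COL6A2 by 14.2, 11.1 and 14.6 times in the shNC libraries and by 7.9, 7.43 and 8.49 times in the shNUF2 libraries. COL6A3 had 24, 29 and 28 reads against 14, 14 and 21 and did not pass the test (log2 fold change −0.53, SE 0.34, adjusted p = 0.16, edgeR), and the alternative chain COL6A6 had 2 to 5 reads in every library.

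The 6 type IV chains, which form the network of basement membranes, split evenly. COL4A1, COL4A2 and COL4A6 rose, and COL4A3, COL4A4 and COL4A5 fell, with 0 called in either direction by edgeR, 0 by DESeq2's Wald test, and 3 higher and 3 lower at an unadjusted p under 0.05. Of all genes, 9.41% were called higher and 4.16% lower, and 33.9% rose and 33.8% fell, so that for 6 genes these counts lie near the background. COL4A1, which pairs with COL4A2 in the main molecule of most basement membranes, had 1969, 2253 and 2389 reads across the shNC libraries, compared with 3403, 3069 and 3746 across those of shNUF2. COL4A5 had 3542, 3742 and 4091 reads against 2036, 1969 and 2380. COL4A1 was high and COL4A5 was low in every shNUF2 library. The log2 fold changes were 0.82 for COL4A1 (SE 0.04, adjusted p = 8.05e-15) and −0.65 for COL4A5 (SE 0.04, adjusted p = 1.25e-12, edgeR with Benjamini-Hochberg adjustment).

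COL4A2 rose by 0.18 (SE 0.04, adjusted p = 0.000309) and COL4A6 by 0.52 (SE 0.06, adjusted p = 3.59e-08, edgeR with Benjamini-Hochberg adjustment). COL4A3 and COL4A4, which join COL4A5 in the basement membrane of the kidney glomerulus, fell by 0.66 (SE 0.14, adjusted p = 0.000133) and 0.67 (SE 0.08, adjusted p = 2.78e-08, edgeR). COL4A3 was the lowest of the 6, at 1.29 FPKM with shNC and 0.794 FPKM with shNUF2.

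The type IV genes lie in 3 head-to-head pairs that are transcribed away from a shared start region. By the RefSeq starts on GRCh38.p14, 126 bases separate COL4A1 and COL4A2 on chromosome 13, 418 separate COL4A3 and COL4A4 on chromosome 2, and 379 separate COL4A5 and COL4A6 on chromosome X. The ratio of COL4A1 to COL4A2 in FPKM was 0.356, 0.366 and 0.356 in the shNC libraries and 0.57, 0.533 and 0.58 in the shNUF2 libraries. That of COL4A6 to COL4A5 was 0.232, 0.23 and 0.244 against 0.533, 0.533 and 0.523. In these pairs the partners moved unequally, and the ratios of the groups did not overlap. The ratio of COL4A3 to COL4A4 was 0.295, 0.321 and 0.316 against 0.304, 0.28 and 0.351, and there the groups overlapped. The differences in mean log2 ratio were 0.64, 1.17 and −0.00 in this order of pairs, with exact two-sided permutation p = 0.10, 0.10 and 1.00. The smallest p possible is 0.10.

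**Figure D4:**
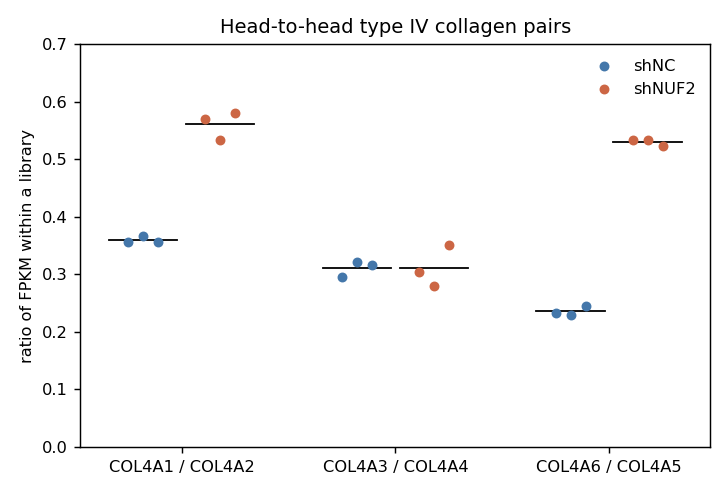
Ratio of FPKM between the partners of each head-to-head type IV pair in the 3 shNC (blue) and 3 shNUF2 (orange) libraries, with the mean as a bar. COL4A1 to COL4A2 lies at 0.356 to 0.366 with shNC and 0.533 to 0.58 with shNUF2, COL4A6 to COL4A5 at 0.23 to 0.244 and 0.523 to 0.533, and COL4A3 to COL4A4 at 0.295 to 0.321 and 0.28 to 0.351.

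Both chains called lower belong to classes outside the main fibrils and networks. COL25A1, a membrane-spanning collagen first found in amyloid plaques, had 932, 1244 and 1179 reads with shNC, compared with 457, 341 and 477 with shNUF2. Its normalized count went from 70.6 ± 6.41 to 30.6 ± 3.95 CPM (mean ± SD, n = 3), and the groups did not overlap. COL9A3, a chain of the fibril-associated cartilage collagen type IX, had 683, 741 and 802 reads against 294, 287 and 343, and went from 47 ± 0.903 to 22.2 ± 0.514 CPM. All shNUF2 libraries were low for both genes. The log2 fold changes were −1.20 for COL25A1 (SE 0.08, adjusted p = 6.60e-13) and −1.08 for COL9A3 (SE 0.08, adjusted p = 1.77e-12, edgeR with Benjamini-Hochberg adjustment). COL25A1 lies on chromosome 4 at 108808725 to 109302752 and COL9A3 on chromosome 20 at 62816244 to 62841159.

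The partner chains of COL9A3 were low throughout. COL9A2 had 5, 3 and 11 reads in shNC cells and 15, 14 and 16 in shNUF2 cells. It was called higher (log2 fold change 1.42, SE 0.48, adjusted p = 0.0114, edgeR). It reached the count cutoff in the shNUF2 libraries only, so it could be tested only by being higher there. Without shNC replicate 2 the value was 1.08 and the adjusted p 0.0747 (edgeR). COL9A1 had a single read in the 6 libraries. COL12A1, a fibril-associated collagen that binds type I fibrils, was the most abundant of its class and fell by 0.63 (SE 0.04, adjusted p = 1.50e-12, edgeR with Benjamini-Hochberg adjustment), from 4694, 5397 and 5789 reads to 2937, 2657 and 3398. COL16A1, of the same class, rose by 0.24 (SE 0.07, adjusted p = 0.00353, edgeR).

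The remaining membrane-spanning chains had few reads. COL17A1, a component of hemidesmosomes, had 22, 11 and 12 reads across the shNC libraries, compared with 40, 58 and 53 across those of shNUF2 (log2 fold change 1.92, SE 0.33, adjusted p = 1.16e-05, edgeR with Benjamini-Hochberg adjustment). COL13A1, known from the neuromuscular junction, had 7, 8 and 4 reads against 29, 37 and 43 (2.68, SE 0.39, adjusted p = 1.19e-06, edgeR). Both were low in every shNC library and were called higher, but COL13A1 was tested through the shNUF2 libraries only. Of the multiplexins, which carry heparan or chondroitin sulphate in basement membrane zones, COL18A1 fell by 0.24 (SE 0.07, adjusted p = 0.00285, edgeR), and exons of SLC19A1 on the opposite strand cover 16.4% of its exon bases. COL15A1 did not pass (log2 fold change 0.14, SE 0.22, adjusted p = 0.587, edgeR).

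The 2 largest fitted fold changes among the members came from chains with few reads. COL28A1 had 0, 2 and 0 reads with shNC, compared with 12, 10 and 12 with shNUF2, and COL20A1 had 2, 4 and 2 against 20, 25 and 18. Summed over libraries and scaled to depth, the ratios were 19.4 for COL28A1 (95% interval 4.98 to 167, from 2 and 34 reads) and 8.99 for COL20A1 (4.3 to 21.7, from 8 and 63 reads). These intervals cover counting error only. The fitted log2 fold changes, 4.03 (SE 0.82, adjusted p = 0.000109) and 3.11 (SE 0.52, adjusted p = 9.29e-06, edgeR with Benjamini-Hochberg adjustment), depend at such counts on single reads and on the filter. Without shNC replicate 2, which held both shNC reads of COL28A1, its fitted value was 6.59, and a filter at a mean of 1 CPM removed both genes from the test. Among untested chains, COL3A1, the type III chain of soft tissues, had 1, 0 and 2 reads in shNC cells and 15, 15 and 5 in shNUF2 cells (ratio 13.3, 95% interval 4.2 to 67.7, counting error only). COL2A1, the main cartilage chain, was without a read in the shNC libraries and had 6, 7 and 5 reads in the shNUF2 libraries, which is at least 6.85-fold higher against a floor of 3 reads over the shNC group if the shNUF2 reads are taken as exact. With counting error in both groups, the lower bound of the 95% interval was 5.02. Both were singled out after their values were seen.

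**Figure D5:**
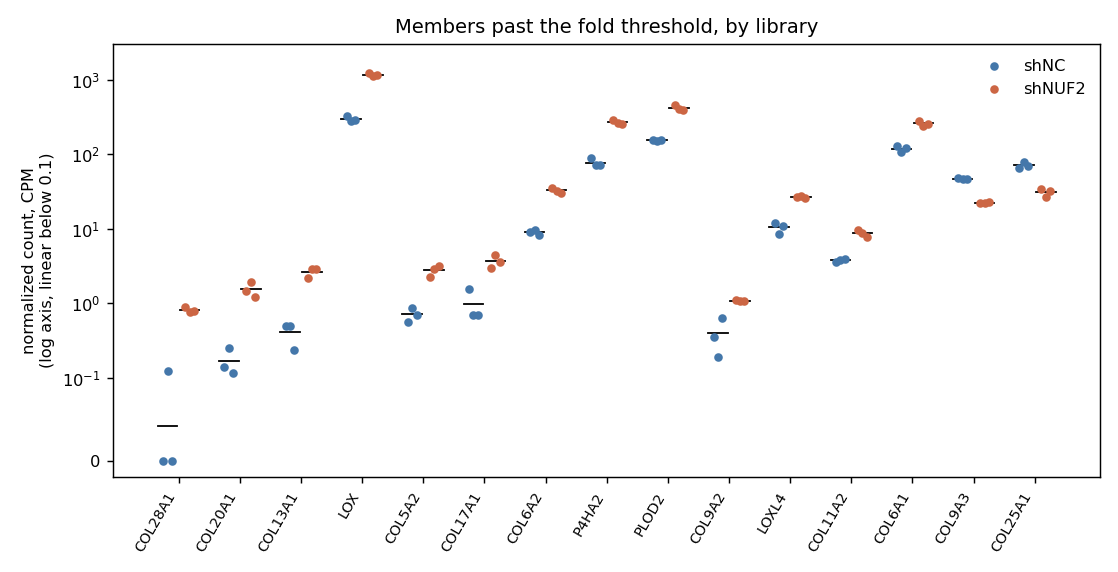
Normalized count (CPM, log axis that is linear below 0.1) of the 15 called members in the 3 shNC (blue) and 3 shNUF2 (orange) libraries, with the mean as a bar, in order of log2 fold change. The groups are apart for all 15; LOX lies at a mean of 295 and 1168 CPM, while COL28A1 and COL20A1 stay near or below 2 CPM in every library.

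The members nearest the fold threshold were COL9A3 (log2 fold change −1.08) and COL6A1 (1.13) inside it, and COL4A1 (0.82) and COL7A1 (0.68) outside it. The order of levels moved accordingly. By mean FPKM, COL7A1 was in rank 1 in both groups, COL5A1 went from rank 2 to 3 and LOX from 5 to 2. PLOD2 went from rank 11 to 6, P4HA2 from 18 to 10 and COL12A1 from 7 to 11.

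Genes that act around collagen were counted in 6 lists of 66 genes, of which 50 were tested. Of these, 14 were called higher (28%, against 9.41% of all genes) and 0 lower (against 4.16%). DESeq2's Wald test also called 14 higher and 0 lower, and 11 were lower at an unadjusted p under 0.05. At an adjusted p under 0.05, 26 rose and 10 fell (52% and 20%, against 33.9% and 33.8%), and the median log2 fold change was 0.28. Of the 44 list genes past the count cutoff in both groups, 8 were called higher (18.2%, against 6.66% of all such genes) and 0 lower (against 3.9%). The other called genes, TLL2, SPARC, GP6, ITGA10, MMP1 and MMP9, were past it with shNUF2 only, so they could be tested only by being higher there.

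The helpers of procollagen folding and modification mostly moved by less than the threshold, with 7 of 13 tested genes higher and 3 lower at an adjusted p under 0.05 (53.8% and 23.1%, against 33.9% and 33.8% of all genes). P3H2, a prolyl 3-hydroxylase that acts on basement membrane collagens, was the only one called. That is 7.69% called higher and 0% lower, near the 9.41% and 4.16% of all genes. P3H2 had 504, 591 and 584 reads against 1120, 1082 and 1109 (log2 fold change 1.17, SE 0.07, adjusted p = 1.54e-14, edgeR with Benjamini-Hochberg adjustment). P3H4 and CRTAP, which take part in hydroxylase complexes of the endoplasmic reticulum, fell by 0.92 and 0.50, and the collagen chaperone SERPINH1 rose by 0.24. The last 3 values and P4HB above were picked after they were seen. Of the 8 genes of procollagen export, 3 rose and 2 fell (37.5% and 25%, against 33.9% and 33.8% of all genes), also at an unadjusted p under 0.05. By edgeR or by DESeq2's Wald test 0 were called, against 9.41% of all genes called higher and 4.16% lower by edgeR. For 8 genes these counts lie near the background. Of the 7 tested genes of propeptide processing, 1 rose and 3 fell (14.3% and 42.9%, against 33.9% and 33.8% of all genes). The one that rose, TLL2, a tolloid-like protease, was also the one called higher (14.3%, against 9.41%), from 9, 8 and 6 reads against 22, 16 and 18 (log2 fold change 1.46), and was tested through the shNUF2 libraries only.

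The lists of collagen-binding matrix proteins, receptors and cleaving enzymes held 12 of the 14 called genes, 5 of them tested through the shNUF2 libraries only. Among 8 tested matrix proteins, 6 rose and 1 fell at an adjusted p under 0.05 (75% and 12.5%, against 33.9% and 33.8% of all genes), and 5 were called higher (62.5%, against 9.41%): FN1, or fibronectin, with a log2 fold change of 1.06, the basement membrane protein NID2 with 1.65, the small proteoglycan DCN with 1.22, TNXB with 1.22 and SPARC with 2.22, the last from 1 to 5 reads per library against 12 to 15. The basement membrane proteoglycan HSPG2 fell by 0.48 (adjusted p = 1.45e-10, edgeR with Benjamini-Hochberg adjustment). Among 8 tested receptors, 5 rose and 1 fell at an adjusted p under 0.05 (62.5% and 12.5%, against 33.9% and 33.8%), and 4 were called higher (50%, against 9.41%), of which ITGA10 and GP6 were tested through the shNUF2 libraries only. These were the collagen-binding integrin chains ITGA1 (1.28) and ITGA10 (3.05, from at most 3 reads per shNC library), the receptor tyrosine kinase DDR2 (2.00) and the platelet receptor GP6 (1.52). The endocytic collagen receptor MRC2 fell by 0.80 (adjusted p = 6.91e-11, edgeR). Of the 6 tested enzymes that cleave collagen, 4 rose and 0 fell at an adjusted p under 0.05, or 66.7% and 0% against 33.9% and 33.8% of all genes (also 0 lower at an unadjusted p under 0.05, and 0 called lower by DESeq2's Wald test), and 3 were called higher (50%, against 9.41%). These were MMP14 (1.14) and, tested through the shNUF2 libraries only, MMP1 and MMP9 (2.31). MMP1, an interstitial collagenase, had 11, 13 and 8 reads across the shNC libraries, compared with 560, 439 and 562 across those of shNUF2, with a log2 fold change of 5.78 (SE 0.17, adjusted p = 2.98e-20, edgeR with Benjamini-Hochberg adjustment).

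Genes listed as markers of other cell types were low in these OVCAR3 libraries except for MSLN and UPK3B of the mesothelial list. Some of them moved with the groups. The summed level of 6 fibroblast markers was 0.347 to 0.665 FPKM in the shNC libraries and 1.12 to 1.51 FPKM in the shNUF2 libraries. Of these markers, DCN and FAP were called higher among 3 tested (66.7%, against 9.41% of all genes). PDGFRB was tested and did not pass (adjusted p = 0.227, edgeR), and FAP and PDGFRB were past the count cutoff with shNUF2 only. PDGFRA had no read in any library, and LUM and THY1 had at most 2. The summed level of 4 mesothelial markers, nearly all of it MSLN, was 154 to 164 and 93.1 to 94.9 FPKM. Within that list CALB2 and LRRN4 went the other way, with no read in the shNC libraries and 16, 11 and 9 reads of CALB2 and 8, 7 and 5 of LRRN4 with shNUF2. The 8 epithelial markers summed to 239 to 275 and 284 to 312 FPKM. Of the 7 tested, KRT8 was called higher (14.3%, against 9.41% of all genes), with a log2 fold change of 1.04. KRT18 (0.55), PAX8 (0.64) and EPCAM (0.69) also rose, and KRT7 (−0.22) and MUC16 (−0.75) fell. Thus 57.1% rose and 28.6% fell, against 33.9% and 33.8% of all genes. CDH1 (−0.72, adjusted p = 0.118, edgeR with Benjamini-Hochberg adjustment) did not pass. KRT7 did not pass with DESeq2's Wald test (adjusted p = 0.0742), nor EPCAM with edgeR without shNUF2 replicate 1 (adjusted p = 0.078). For 3 endothelial markers the sum was 0.226 to 0.439 and 0.462 to 0.679 FPKM. CDH5 of that list, past the count cutoff with shNUF2 only, was called higher (50% of those tested, against 9.41% of all genes). It had 1, 1 and 4 reads against 15, 19 and 27 (log2 fold change 3.45, adjusted p = 7.15e-06, edgeR with Benjamini-Hochberg adjustment). PECAM1, the other one tested, had 24 to 49 reads per library and did not pass (−0.02, adjusted p = 0.966, edgeR). For 3 immune markers the sum was 0 to 0.0544 and 0.043 to 0.121 FPKM. All libraries came from the cultured line OVCAR3, so reads of these markers do not show that other cell types were present. A part of other cells in the collagen differences was not tested.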

How the data were processed

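OVCAR3 cells with shNC or shNUF2 were compared over 3 libraries each, grouped by the sample labels. The authors made strand-specific mRNA libraries, and per the submitters' processing notes used cutadapt, HISAT and HTSeq with GRCh38.p13; versions, the annotation release and the strand setting of counting are not given in the sources used here. The authors deposited raw read counts per gene and FPKM, and the deposited FPKM matched the count divided by gene length and library total (largest relative deviation 2.71e-07). The table's columns of annotation were used for symbols, positions and lengths only.

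Members and gene lists were chosen with earlier results of these data known. Counts were tested in edgeR 4.0.16 (R 4.3.3) on the whole table with TMM scaling, filterByExpr (minimum count 10) and the quasi-likelihood test, with no covariate. Calls needed an absolute log2 fold change over 1 with unadjusted p under 0.05, thresholds taken from the study's methods and read on the log2 scale; p-values were adjusted by the Benjamini-Hochberg method across all 12874 tested genes. The SE was calculated as the log2 fold change over the root of F. CPM are counts scaled to the TMM-adjusted library size. Single ratios and shares were compared by exact two-sided permutation tests, and these pairs were chosen after the values were seen.

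The text names every called member, the 10 members with the highest mean FPKM, all LOX, PLOD and P4HA members, chains that share a helix with one of these, called genes of the lists and the members nearest the threshold. Other genes named were chosen after their values were seen. Exon overlaps were read from GENCODE 29, which held all 55 members. Promoters were read from RefSeq on GRCh38.p14, with windows used for 41 members. Windows on chromosome 8, where LOXL2, COL14A1 and COL22A1 lie, were left out for the members but not for all genes. Promoters of other members are not shown.

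Alternatives were DESeq2 size factors, upper quartile or totals as the scaling, the Wald test of DESeq2 1.42.0, no filter, a mean of at least 1 CPM, adjusted p, a replicate block and each library left out. On simulated counts of 12756 genes for shNUF2 against shNC, edgeR recovered 92 of 100 genes changed by a log2 fold of 0.5 and 100 of 100 changed by 1.5, with 8 unchanged genes past the same threshold. Recovery was judged by adjusted p under 0.05 in the planted direction, without the fold threshold. The changed genes were drawn from genes with many reads and every gene had the same dispersion, so the simulation does not cover members with few reads. Pairs of replicate libraries differed beyond sampling noise (chi-square per degree of freedom 2.71 to 4.52). Figures were drawn with Python 3.11.15.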

Additional observations from a re-analysis of the deposited data

How the results depend on the processing

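Over the scalings, tests, filters and left-out libraries tried, 889 values of the 38 tested members, NUF2 and the named list and marker genes kept their direction and their side of the adjusted p threshold, 3 were no longer past it, 2 were newly past it and 9 turned direction. COL9A2 without shNC replicate 2, EPCAM without shNUF2 replicate 1, KRT7 with DESeq2's Wald test and PLOD3 with library totals or no filter changed side. With 1 library left out, LOXL3 ran from −0.14 to 0.04 (above 0 without shNUF2 replicate 2 or 3) and P4HA3 from −0.16 to 0.08 (above 0 without shNC replicate 1 or shNUF2 replicate 1); COL15A1 ran from −0.04 to 0.27 and PECAM1 from −0.28 to 0.18. None of these 4 passed the test. When only genes past the count cutoff in both groups were counted, which was chosen after seeing the data, all genes called higher went from 1212 to 799, members called higher from 13 to 8 and list genes called higher from 14 to 8; there fewer genes enter by construction. Members called higher numbered 13 to 15 with 1 library left out, 17 without a filter and 10 with a mean of at least 1 CPM. In the same settings all genes called higher numbered 1198 to 1332, 1770 and 1034. The filter at a mean of at least 1 CPM left COL9A2, COL20A1 and COL28A1 untested. COL3A1 and COL8A2 were newly called with some libraries left out and without a filter, which also added COL2A1 and COL8A1. Members called lower numbered 2 in every setting. With the replicate number as a block, 13 members were higher and 2 lower; the correlations of deviations between libraries of the same number were 0.02, 0.00 and −0.03, so the numbers do not pair the samples. The fitted fold of COL28A1 ran from 3.46 to 6.59 on the log2 scale. Depth limits the 17 untested chains, whose levels could not be compared beyond their few reads.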
